A study of Mus musculus with 6 samples.

Results

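The genes described here are 34 heat shock and unfolded protein response genes, taken by name from the count tables of nucleus accumbens tissue in which the long noncoding RNA Gas5 was or was not overexpressed. All 34 were among the 54658 genes listed, and 33 of them were among the 17563 genes with enough counts to be tested. They form 3 classes. The first holds 14 cytosolic and mitochondrial chaperones, the second Atf4 with 8 of its targets, and the third 11 chaperones and regulators of the endoplasmic reticulum (ER).

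The tissue came from male C57BL6 mice of 8 weeks. In 3 samples it had received a herpes simplex virus (HSV) vector, p1005+, that expressed Gas5 together with EGFP, and in the other 3 the same vector with EGFP alone. These are called the Gas5 and the GFP libraries, and each group has libraries A, B and C. All 6 libraries therefore come from tissue exposed to the virus and to EGFP, and no uninjected tissue enters the comparison. HSV vectors mainly reach neurons, and the libraries were made from whole dissected tissue, in which transduced and untransduced cells are mixed. The series concerns the role of Gas5 in cocaine action, and no cocaine treatment is named for these 6 samples. How many mice gave each sample is not given in the sources used here, and p-values here describe how far these 6 libraries spread, which may be technical.

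Cells keep their proteins folded with 3 gene programmes that these classes represent. In the heat shock response, the factor Hsf1 is released when unfolded proteins draw chaperones away from it, and it then switches on cytosolic chaperones such as the inducible Hsp70 genes Hspa1a and Hspa1b. In the unfolded protein response, the ER sensors Ern1 (Ire1), Eif2ak3 (Perk) and Atf6 respond to unfolded proteins in the ER. Ern1 splices the Xbp1 mRNA, Atf6 is cleaved to an active factor, and both raise ER chaperones such as Hspa5 (BiP). Eif2ak3 shares with Eif2ak4 (Gcn2), Eif2ak2 (Pkr) and Eif2ak1 the phosphorylation of the translation factor eIF2, which slows translation in general while favouring translation of the Atf4 mRNA. Atf4 in turn raises genes of amino acid supply and, with Ddit3 (Chop), of prolonged stress. Because Atf4 is controlled in large part through translation, its mRNA level does not report its protein level, and the counts per gene used here do not separate spliced from unspliced Xbp1.

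Known response elements of these programmes could be read in the upstream sequence of some members. They are shown because these elements are the known route from each programme to its genes. The members were taken by name as known genes of these programmes, so they are not independent of the elements. The shares below are therefore a description and no test. RefSeq promoters on GRCm38.p6 were matched for 29 of the 34 members, and the 250 bases before each start were searched on both strands. Members are counted as genes, with a match in any promoter of the gene, and the shares of all promoters count each promoter. Some members have more than 1 promoter, so the measures are not the same. The heat shock element of 3 units, GAANNTTCNNGAA, was found in 2 of 11 cytosolic and mitochondrial chaperones and in 0 of the other members, against 0.466% of all 32851 promoters. Its core of 2 units, GAANNTTC, which lies within the longer element, was found in 6 of these 11 genes, in 1 of 9 genes of the Atf4 class and in 0 of 9 ER genes, against 6.69% of all promoters. The ER stress response element, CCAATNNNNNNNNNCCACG, was found in 4 of 9 ER genes and in 0 members of the other classes, against 0.113% of all promoters. The related second form, ATTGGNCCACG, was found in 1 of 9 ER genes, against 0.0304% of all promoters. The core shared by C/EBP and ATF factors, TGATGNAA, was found in 2 of 9 genes of the Atf4 class and in 1 of 9 ER genes, against 3.45% of all promoters. A match describes these letters only.

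The stretches of 30 bases below are written 5′ to 3′ on the strand of the gene, with the matched motif in capitals. Hspe1 and Hspd1, which encode the mitochondrial co-chaperonin and chaperonin, lie head to head on chromosome 1, and their elements overlap on opposite strands. In Chac1, Calr and Creld2 the motif reads on the opposite strand.
Hspe1, heat shock element, chr1:55088056-55088085, plus strand: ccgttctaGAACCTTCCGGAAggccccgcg
Hspd1, heat shock element, chr1:55088050-55088079, minus strand: gccttccgGAAGGTTCTAGAAcggaccgtg
Hspa1a, core of 2 units, chr17:34972242-34972271, minus strand: cgaaactgctgGAAGATTCctggccccaag
Hspb1, core of 2 units, chr5:135887811-135887840, plus strand: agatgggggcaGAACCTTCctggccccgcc
Asns, C/EBP and ATF core, chr6:7693214-7693243, minus strand: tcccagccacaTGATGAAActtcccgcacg
Chac1, C/EBP and ATF core, chr2:119351038-119351067, plus strand: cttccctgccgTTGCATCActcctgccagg
Hspa5, ER stress response element, chr2:34772020-34772049, plus strand: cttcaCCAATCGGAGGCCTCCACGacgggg
Hsp90b1, ER stress response element, chr10:86705632-86705661, minus strand: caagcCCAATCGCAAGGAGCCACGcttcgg
Calr, ER stress response element, chr8:84847069-84847098, minus strand: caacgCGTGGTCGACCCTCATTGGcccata
Creld2, ER stress response element, chr15:88819515-88819544, plus strand: cttctCGTGGCGAGCCTCAATTGGtccaca
Herpud1, second form of the ER element, chr8:94386368-94386397, plus strand: cgggcgctgATTGGGCCACGttggacactg
In Asns the printed stretch also overlaps a heat shock core of 2 units. Hspa1b carries the same 30 bases as Hspa1a at chr17:34959324-34959353, and the 250 upstream bases of these neighbouring genes were identical at 247 positions.

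Total counts ranged from 32359052 to 56081575 per library, of which the members held between 0.168% and 0.199%. Gas5 itself was 1.30-fold higher in the Gas5 libraries, at 22.57, 23.26 and 23.64 against 18.62, 16.47 and 18.26 CPM, that is, counts scaled to the size of the library, with an adjusted p of 0.0163 in edgeR's quasi-likelihood test. Medium spiny neuron markers, which define the nucleus accumbens, were present in all libraries, with 0 of 11 called and 1 at an unadjusted p under 0.05. The libraries differed in markers of other cells. Of 11 cortical excitatory neuron markers, 10 were tested and 7 were lower in the Gas5 libraries, and Neurod1 was at 0 counts in every library. Of 10 reactive astrocyte markers, 7 were tested and 4 were higher, while Gfap and Timp1 were at 0 counts in every library. Reads in overlaps of genes were not counted, so 0 counts need not mean that a gene is silent. Whether Neurod1, Gfap and Timp1 lie in such overlaps was not examined. The mean log2(CPM + 0.5) of the cortical list was 3.966, 4.469 and 4.489 in the GFP libraries, against 2.192, 2.865 and 3.036 with Gas5. That of the reactive astrocyte list was 2.377, 2.115 and 1.943 in the GFP libraries, against 3.859, 2.975 and 3.216 with Gas5. Summed over each list, cortical markers ranged from 188.7 to 245.7 CPM with Gas5 and from 407.1 to 543.8 CPM with GFP, and reactive astrocyte markers from 73.36 to 146.4 CPM with Gas5 and from 32.08 to 42.36 CPM with GFP. Other lists also had library means that separated the groups. Microglia markers (8 tested, 0 called), the interferon response genes (12 tested, 0 called) and ependymal markers (3 tested, 1 called higher) stood higher in the Gas5 libraries. Oligodendrocyte markers (8 tested, 1 called lower) and immediate-early genes (10 tested, 3 called lower) stood lower. The part of these 7 lists in the members' values was not tested. In bulk tissue, fewer cells of a type and less RNA per cell cannot be told apart.

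No member was called higher or lower in the Gas5 libraries by edgeR's quasi-likelihood test at an adjusted p of 0.05. That is 0 of 33, where 5.44% of all tested genes were called, 1.48% higher and 3.96% lower. An unadjusted p under 0.05 was reached by 5 of the 33, namely Hspb1, Hspe1, Trib3, Sdf2l1 and Atf4, compared with 21.4% of all genes. The 3 Gas5 values and the 3 GFP values did not overlap for 4 of the 33, namely Hspe1, Atf4, Trib3 and Asns, compared with 27.7% of all genes. DESeq2 and limma-voom also called 0 members. The median log2 fold change of the members, Gas5 minus GFP, was 0.013, and that of all tested genes 0.016, with 20 members above 0 and 13 below. Of all tested genes, 54.2% lay above 0. Single values ran from -0.271 for Atf4 to 0.637 for Hspb1.

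The intervals of these differences say how large a change the 6 libraries could have hidden. The 95% interval of the fold change lay within 1.5-fold in either direction for 28 of the 33 members and within 2-fold for 31. Hspb1 and Trib3 were the members with an interval beyond 2-fold, and each had under 3 CPM in every library. An interval that spans no change does not show that a gene is unchanged.

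**Figure D1:**
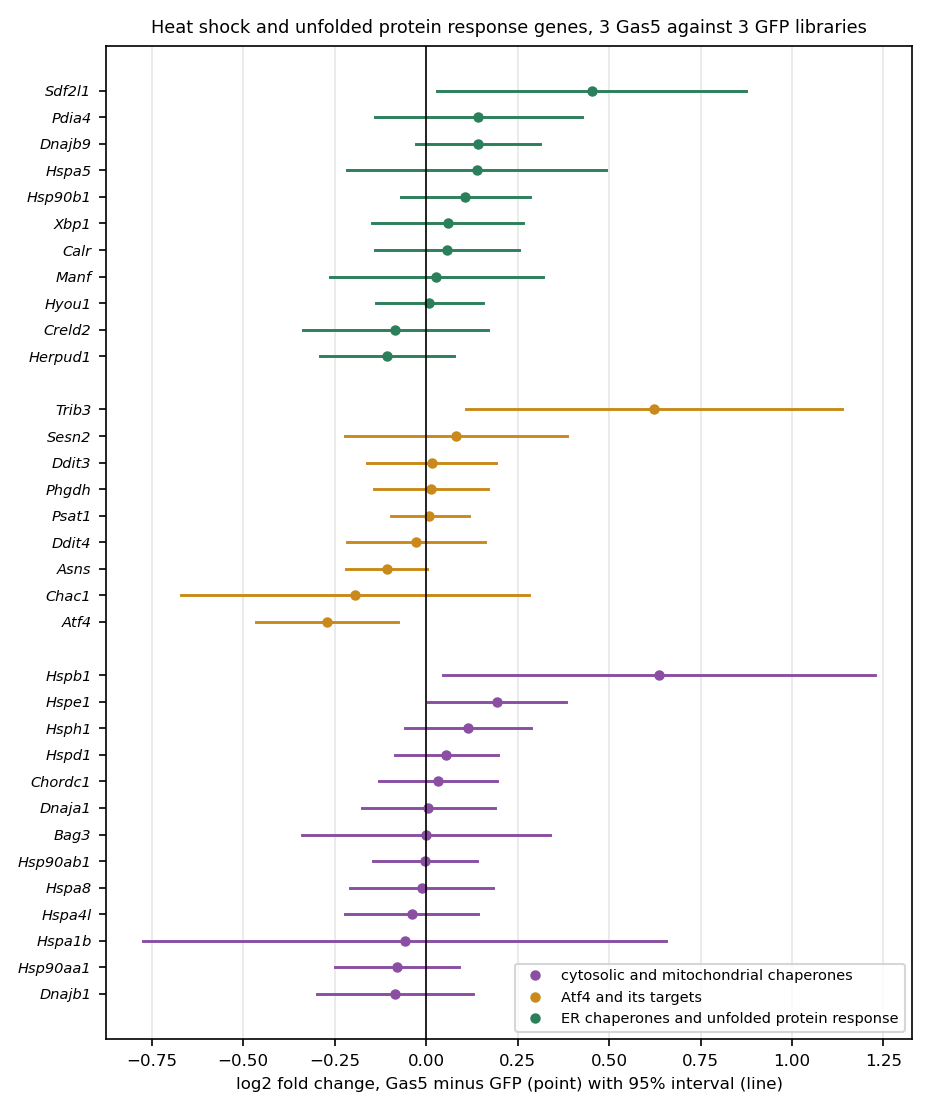
Log2 fold change, Gas5 minus GFP, of the 33 tested members in their 3 classes, with 95% intervals from edgeR's quasi-likelihood fit. Atf4 lies lowest at -0.271, Hspb1 and Trib3 lie highest, and most intervals cross 0.

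Among the cytosolic and mitochondrial chaperones, 0 of 13 tested genes were called, and the median log2 fold change was -0.001, with 6 genes above 0 and 7 below, though the sign of Hsp90ab1, Hspa8, Bag3 and Dnaja1 turned with the scaling or the tool. An unadjusted p under 0.05 was reached by Hspb1 and Hspe1. The inducible Hsp70 genes, which are among the most heat-responsive genes of a mammalian cell, had few counts. Hspa1a (chr17:34969190-34972156, minus strand) had 5, 6 and 21 counts in Gas5 A to C and 23, 5 and 3 in GFP A to C, and was not tested. Gas5 C and GFP A held most of its counts. Hspa1b (chr17:34956436-34959238, minus strand) had 39, 37 and 47 counts against 78, 23 and 33, or 0.9045, 0.865 and 1.213 CPM against 1.403, 0.5965 and 1.039. Its groups overlapped, the log2 fold change was -0.059 (SE 0.314, adjusted p 0.936), and the interval from 0.585-fold to 1.58-fold leaves room for a sizeable change in either direction. Both genes consist of exon alone in the annotation. Of the words of 50 bases in Hspa1a, 58.8% also occur in Hspa1b, so their counts are uncertain, and 75% of the Hspa1a span lies in another listed gene, where reads were not counted.

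Hspb1 (chr5:135887919-135889563, plus strand) encodes a small heat shock protein that holds unfolding proteins and binds the cytoskeleton. It had 1.855, 1.403 and 1.677 CPM in the Gas5 libraries and 1.439, 0.8817 and 0.7555 CPM in the GFP libraries. GFP A lay just above the lowest Gas5 library, so the groups overlapped. The fold change was 1.555 with an interval from 1.03 to 2.34 (SE 0.259 on the log2 scale), and the adjusted p was 0.198 in edgeR's quasi-likelihood test. Of its transcript words of 50 bases, 50.1% occur in other genes, among them the pseudogene Hsp25-ps1, so this level is uncertain.

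Hspe1 (chr1:55088132-55091307, plus strand), the mitochondrial co-chaperonin, had 10.16, 9.585 and 9.781 CPM against 9.213, 8.636 and 7.87. Every Gas5 library was above every GFP library. The log2 fold change was 0.194 (SE 0.0823, adjusted p 0.218). Its partner Hspd1 (chr1:55077835-55088243, minus strand), the chaperonin that forms the folding chamber with it, had 42.97, 37.59 and 39.46 CPM against 39.77, 39.11 and 36.61. Here the groups overlapped, at a log2 fold change of 0.054 (SE 0.0616, adjusted p 0.658). The starts of both genes overlap, over 3.53% of the Hspe1 span and 1.08% of the Hspd1 span, and 22.8% and 42.1% of their words of 50 bases occur in other genes.

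Hsph1 (chr5:149614287-149636376, minus strand) encodes the nucleotide exchange factor Hsp110, which recharges Hsp70. It had 162.9, 155.2 and 173.1 CPM in the Gas5 libraries and 167.9, 139.3 and 146.4 CPM in the GFP libraries. GFP A lay within the Gas5 range and the other GFP libraries below it, and the log2 fold change was 0.114 (SE 0.0753, adjusted p 0.427). The constitutive Hsp90 gene Hsp90ab1 (chr17:45567775-45573271, minus strand) had the most counts of any member, at 453.3, 418.3 and 442.9 CPM against 471.2, 424.2 and 421.3. Its groups covered nearly the same range, and the interval of its fold change was narrow, from 0.904 to 1.10 (adjusted p 0.987).

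The other members of the class lay closer to 0 than Hspe1. Hsp90aa1, the inducible Hsp90, stood at a log2 fold change of -0.079 and Dnajb1, the J-protein that delivers clients to Hsp70, at -0.085. Hspa8, the constitutive Hsp70 of neurons and other cells, stood at -0.012, and its ranges were 242.2 to 285.3 CPM in the Gas5 and 256.4 to 302.1 CPM in the GFP libraries. Bag3, which hands clients of Hsp70 to autophagy, stood at -0.001, Dnaja1, a further J-protein, at 0.005, Chordc1, a partner of Hsp90, at 0.032, and Hspa4l, a relative of Hsph1, at -0.040. In none of these 7 genes were the groups apart. Of the transcript words of the length used above, 47.5% in Hsp90aa1, 39.4% in Hspa8 and 20.6% in Dnaja1 occur in other genes. The levels of Hsp90aa1, Hspa8 and Dnaja1 are therefore uncertain.

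Among Atf4 and its targets, 0 of 9 genes were called, 2 reached an unadjusted p under 0.05 and 3 had groups that did not overlap, shares close to the 21.4% and 27.7% of all tested genes. The median log2 fold change was 0.009, with 5 genes above 0 and 4 below. Atf4 and its target Trib3 had opposite signs. Atf4 (chr15:80255184-80257541, plus strand) had 23.4, 21.58 and 24.31 CPM in the Gas5 libraries and 30.14, 24.51 and 28.84 CPM in the GFP libraries. The highest Gas5 library lay only just below the lowest GFP library, GFP B. The means were 23.1 CPM ± 1.39 and 27.8 CPM ± 2.95 (SD, n = 3), and the log2 fold change was -0.271 (SE 0.0846), with a fold interval from 0.725 to 0.948. With an adjusted p of 0.109 in edgeR's quasi-likelihood test, from an unadjusted 0.0117, Atf4 was not called.

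Trib3 (chr2:152337422-152344032, minus strand) encodes a pseudokinase that Atf4 and Ddit3 raise and that restrains Atf4 in turn. It drew 95, 121 and 111 reads in Gas5 A to C and 122, 62 and 38 in GFP A to C, or 2.203, 2.829 and 2.865 CPM against 2.195, 1.608 and 1.196. The groups were apart by less than 0.01 CPM between Gas5 A and GFP A, and by more in the other libraries. The fold change was 1.542 with an interval from 1.08 to 2.20 (SE 0.225 on the log2 scale), and the adjusted p was 0.154.

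Asns (chr6:7675169-7693254, minus strand), asparagine synthetase and a standard readout of Atf4, had 39.24, 36.28 and 39.28 CPM against 41.15, 41.7 and 40.86. All Gas5 libraries were below all GFP libraries, but the log2 fold change was small, at -0.108 (SE 0.0486, adjusted p 0.245). Psat1 (chr19:15904678-15947337, minus strand) and Phgdh, enzymes of serine synthesis, did not share that separation. Psat1 had 48.45, 46.24 and 49.14 CPM against 47.12, 49.2 and 46.56, with a log2 fold change of 0.009 (adjusted p 0.932). Phgdh stood at 0.013, and 47.8% of its transcript words of the length used above occur in other genes, so its level is uncertain. Ddit3 (chr10:127290774-127296288, plus strand), the Chop factor of lasting stress, had 11.27, 11.69 and 10.63 CPM against 11.82, 10.4 and 10.99. Its groups covered the same range, and its log2 fold change of 0.015 had a fold interval from 0.894 to 1.14 (adjusted p 0.936).

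Among the remaining genes of this class, Chac1, which degrades glutathione, stood at a log2 fold change of -0.195 (SE 0.209) with at most 2.393 CPM in any library. Sesn2, a brake on mTORC1 signalling, stood at 0.081 and Ddit4, another such brake, at -0.028. The groups of all 3 overlapped.

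**Figure D2:**
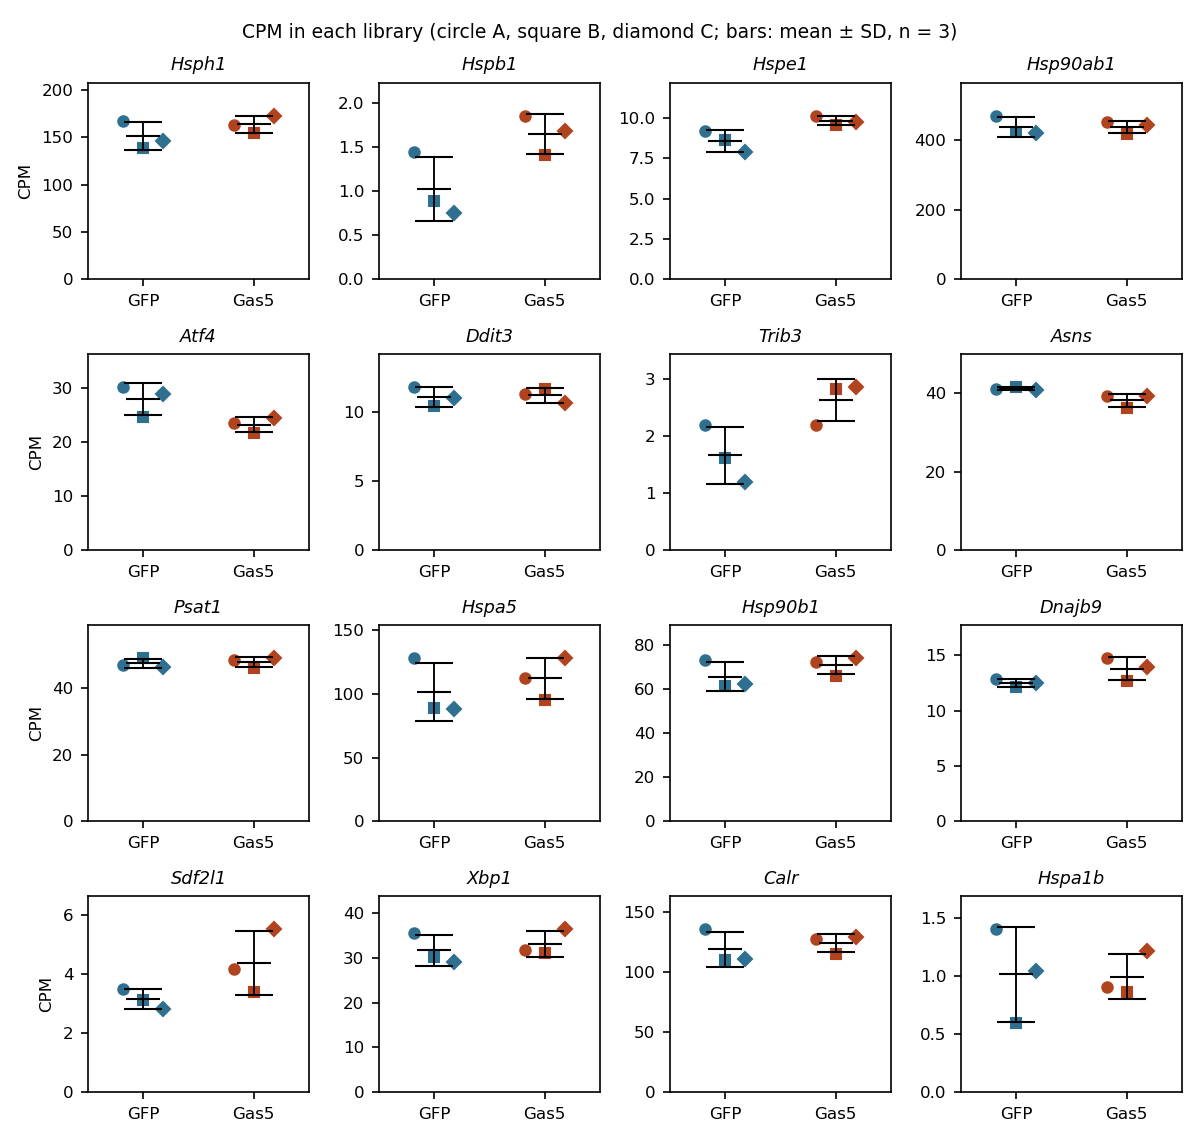
CPM of 16 members in each GFP (blue) and Gas5 (red) library, on linear axes from 0, with circles for A, squares for B, diamonds for C and bars for the mean ± SD of 3 libraries. The Gas5 and GFP points are apart for Hspe1, Atf4, Trib3 and Asns, and GFP A lies above GFP B and C in most panels.

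Among the ER chaperones and unfolded protein response genes, 0 of 11 were called, 1 reached an unadjusted p under 0.05 and in 0 of 11 were the groups apart. Over all tested genes 21.4% reached that p and 27.7% had groups apart. The median log2 fold change was 0.059, with 9 genes above 0 and 2 below, where 54.2% of all tested genes lay above 0. Most of these ER genes shared the order of the libraries within a group, as described below. Their signs are therefore not separate observations. Hspa5 (chr2:34771970-34777547, plus strand), the ER Hsp70 BiP and the usual first readout of ER stress, had 112.7, 95.52 and 128 CPM in the Gas5 libraries and 128.2, 88.59 and 88.15 CPM in the GFP libraries. GFP A was the highest of all 6 libraries and the other GFP libraries were the lowest. The spread within the groups was therefore larger than the difference between them, at a log2 fold change of 0.138 (SE 0.155, adjusted p 0.656) and a fold interval from 0.861 to 1.41.

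Sdf2l1 (chr16:17130138-17132383, minus strand), which works with BiP and its J-proteins, had the largest log2 fold change of the class. It had 4.175, 3.39 and 5.523 CPM against 3.509, 3.138 and 2.833. Gas5 B lay below GFP A, so the groups overlapped, and the fold change was 1.368 with an interval from 1.02 to 1.83 (SE 0.185 on the log2 scale, adjusted p 0.203). Dnajb9 (chr12:44205559-44210326, minus strand), the ER J-protein ERdj4 and a target of spliced Xbp1, had 14.77, 12.67 and 13.96 CPM against 12.85, 12.14 and 12.53. Gas5 B again lay among the GFP libraries, at a log2 fold change of 0.141 (SE 0.0747, adjusted p 0.318).

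Hsp90b1 (chr10:86690209-86705509, minus strand), the ER Hsp90 known as Grp94, had 72.13, 65.9 and 73.94 CPM against 73.16, 61.07 and 62.24, with a log2 fold change of 0.107 (SE 0.0772, adjusted p 0.469). Calr (chr8:84841850-84846934, minus strand), the calcium-binding lectin chaperone calreticulin, had 127.6, 115.5 and 129.1 CPM against 135.9, 110.2 and 111.1, with a log2 fold change of 0.058 (adjusted p 0.745). Xbp1 (chr11:5520659-5525893, plus strand) had 31.77, 30.93 and 36.36 CPM against 35.55, 30.16 and 29.06, with a log2 fold change of 0.059 (adjusted p 0.752). In each of these 3 genes GFP A lay within or above the Gas5 range and both other GFP libraries lay below it. Hsp90b1 was counted on part of its length only, since 60.8% of its exon bases lie in other listed genes.

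The other ER members ran from a log2 fold change of -0.107 for Herpud1, a component of ER-associated degradation, to 0.143 for Pdia4, a disulfide isomerase. Creld2 stood at -0.084, Manf, a secreted factor that ER stress raises, at 0.027, and Hyou1, the ER exchange factor for BiP, at 0.009. Manf shares 92.3% of its span, though 15.9% of its exon bases, with other genes.

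The classes can be set side by side through the mean log2(CPM + 0.5) of their tested genes in each library. The cytosolic and mitochondrial chaperones stood at 4.992, 4.810 and 4.986 in Gas5 A to C, against 5.026, 4.805 and 4.788 in GFP A to C. The ER genes stood at 4.847, 4.703 and 4.953 against 4.914, 4.670 and 4.664. In both classes GFP A stood with Gas5 A and C, and Gas5 B stood with GFP B and C. The Atf4 class varied less among the Gas5 libraries, at 3.562, 3.585 and 3.602 against 3.678, 3.505 and 3.515. The group means were 4.929 ± 0.103 and 4.873 ± 0.133 for the cytosolic class, 4.834 ± 0.125 and 4.750 ± 0.143 for the ER class and 3.583 ± 0.020 and 3.566 ± 0.097 for the Atf4 class (SD, n = 3). In all 3 classes the difference between the groups was smaller than the SD among the GFP libraries.

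**Figure D3:**
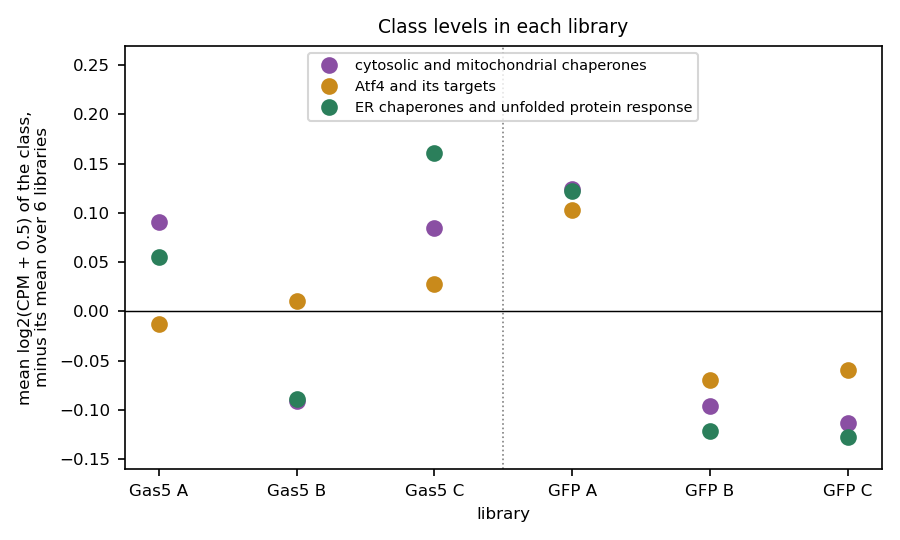
Mean log2(CPM + 0.5) of each class in each library, minus the mean of that class over the 6 libraries, with 1 point per class and library. The cytosolic and ER classes lie high in Gas5 A, Gas5 C and GFP A and low in Gas5 B, GFP B and GFP C, whereas the Atf4 class lies close to 0 in all 3 Gas5 libraries.

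The order of the libraries within a group was shared by many members, a pattern noticed after the values were seen and given as a description. Gas5 B was the lowest Gas5 library for 13 of 13 cytosolic and mitochondrial chaperones and 10 of 11 ER genes, and for 4 of 9 genes of the Atf4 class. GFP A was the highest GFP library for 12 of 13, 11 of 11 and 6 of 9 genes. Both held together for 24 of 33 members (72.7%), against 14.9% of all tested genes. In lists that were not members, both held for 15 of 38 other cytosolic and mitochondrial chaperones and cochaperones, 11 of 29 other ER genes, 6 of 29 other Atf4 targets, 6 of 8 astrocyte markers and 8 of 12 interferon response genes. They held for 1 of 11 medium spiny neuron markers and 1 of 10 cortical markers. The share of counts in mitochondrial genes ran the same way, at 2.52%, 2.05% and 2.36% in the Gas5 and 2.48%, 2.23% and 2.24% in the GFP libraries, and GFP A was also the deepest library. Their part in this order was not tested.

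These 2 libraries moved the class medians. Without Gas5 B the median log2 fold change was 0.08 for the cytosolic class and 0.106 for the ER class, and without GFP A it was 0.079 and 0.164. In both cases 0 members were called.

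**Figure D4:**
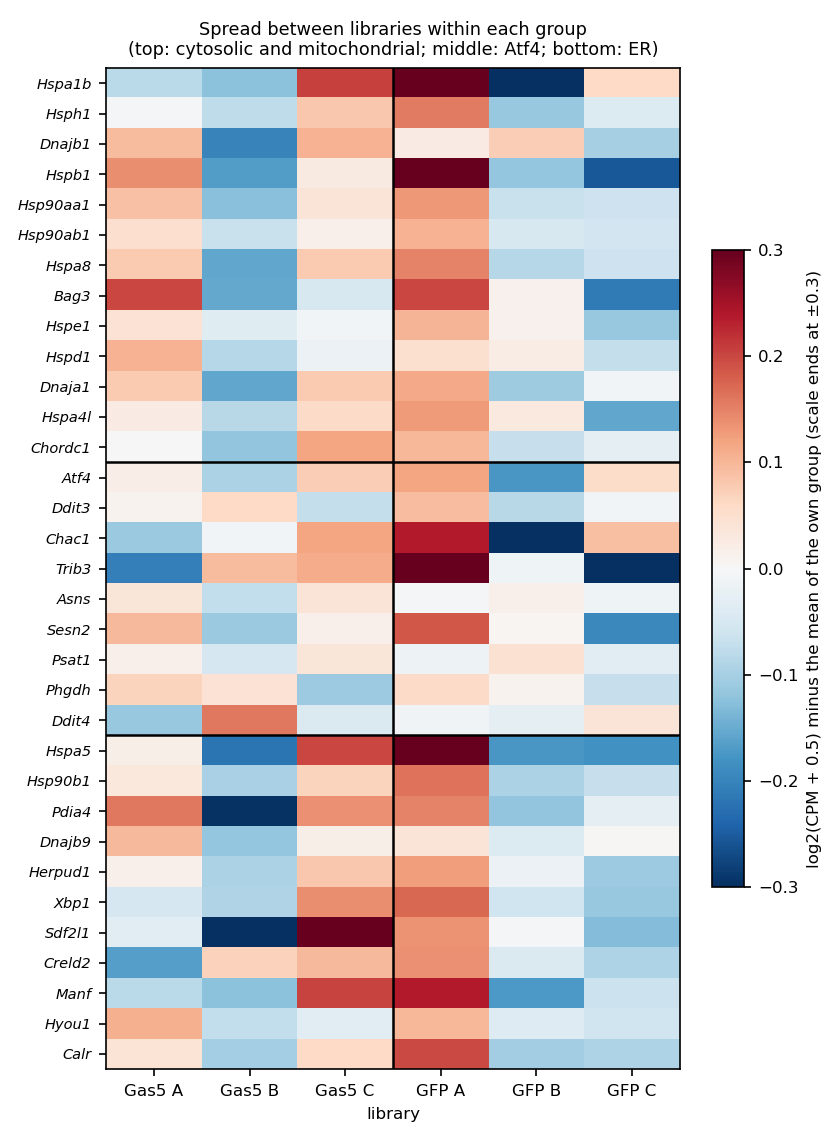
Each tested member (rows, by class) in each library (columns), as log2(CPM + 0.5) minus the mean of its own group, so that only variation within a group shows. The colour scale ends at 0.3 in either direction, and larger deviations take its end colours. The columns Gas5 B and GFP A stand apart from the others in the cytosolic and ER rows.

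The members were read beside 122 further genes of the same pathways, of which 116 were tested. Of these, 1 was higher and 4 were lower, and their median log2 fold change was 0.008. Among the untested genes, Slc7a5, Stub1 and Erlec1 were at 0 counts in every library. For each of them 100% of the span lies in other listed genes, where reads were not counted. Over all tested genes 1.48% were called higher and 3.96% lower, and the median was 0.016. Of the 5 heat shock factor genes, 0 were called and 0 reached an unadjusted p under 0.05 in edgeR's quasi-likelihood test, and DESeq2 and limma-voom called 0. Hsf1 had 36.41, 34.09 and 33.21 CPM against 32.82, 34.7 and 33.4, a log2 fold change of 0.040 (adjusted p 0.709). Hsf5 stood at -0.12 and Hsbp1, which binds and restrains Hsf1, at -0.048. Of the 15 stress sensors and related genes, 0 were called by any of these 3 tools. An unadjusted p under 0.05 was reached by 2 of them, compared with 21.4% of all tested genes. Ern1 stood at 0.037 (adjusted p 0.704), Eif2ak3 at -0.073 (0.493), Atf6 at -0.139 (0.495), Eif2ak4 at 0.105 (0.271), Atf6b at -0.168 (0.12) and Creb3l2 at -0.157 (0.172), each by edgeR's quasi-likelihood test. Eif2ak2, an interferon-induced eIF2 kinase named here after its values were seen, had the largest change of the list. It had 85.95, 68.5 and 74.33 CPM against 67.85, 35.97 and 62.96, so that the lowest Gas5 library lay just above the highest GFP library, at a log2 fold change of 0.454 (SE 0.204, adjusted p 0.243).

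Among 38 other cytosolic and mitochondrial chaperones and cochaperones, 1 was called higher, Hspb8, and 1 lower, Dnajb5. Over all tested genes 5.44% were called, 1.48% higher and 3.96% lower. Hspb8, a small heat shock protein that works with Bag3, had 7.63, 6.172 and 5.858 CPM against 4.84, 4.409 and 4.124, a log2 fold change of 0.55 (SE 0.127, adjusted p 0.0449). All Gas5 libraries were above all GFP libraries, and the call was lost when any 1 library was left out, at adjusted p from 0.0514 to 0.167, and in limma-voom (0.0536). Dnajb5, a J-protein, had 58.79, 58.73 and 64.18 CPM against 72.86, 68.31 and 72.09, a log2 fold change of -0.231 (SE 0.0523, adjusted p 0.0419). Its call was lost on leaving out GFP C (adjusted p 0.161), GFP B (0.107), GFP A (0.102), Gas5 A (0.1) or Gas5 B (0.0737), and with upper quartile scaling (0.0578).

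Among 29 other targets of Atf4 and of the amino acid response, 3 fell and 0 rose, 20 lay below 0 and 9 above, and the median log2 fold change was -0.056. Over all tested genes 3.96% fell. An unadjusted p under 0.05 was reached by 8 of the 29, 7 of which were lower, and by 21.4% of all tested genes. That 21.4% counts both directions, and of all 17563 tested genes 1967 were lower at that p. Above 0 lay 31% of this list and 54.2% of all tested genes. Aars, the alanyl-tRNA synthetase, had 54.25, 53.16 and 52.41 CPM against 61.23, 60.87 and 61.73, a log2 fold change of -0.202 (SE 0.0402, adjusted p 0.0286). Slc7a1, a transporter of cationic amino acids, had 41.56, 37.31 and 40.41 CPM against 45.04, 49.64 and 50.12, a log2 fold change of -0.278 (SE 0.0614, adjusted p 0.0398). Jdp2, a bZIP factor related to Atf3, had 45.94, 54.66 and 48.08 CPM against 59.43, 58.92 and 64.38, a log2 fold change of -0.297 (SE 0.0705, adjusted p 0.0486). All 3 had groups that did not overlap, with the Gas5 libraries below. Other genes of this response were apart in the opposite direction, among them the member Trib3 and, chosen after its values were seen, Atf3. Atf3, a stress-induced bZIP factor, had 2.412, 1.426 and 1.497 CPM against 0.9896, 0.7261 and 1.165, the largest log2 fold change of the list at 0.897 (SE 0.271, adjusted p 0.0994). Aars was no longer called on leaving out GFP C (adjusted p 0.128), GFP B (0.122), GFP A (0.0635) or Gas5 C (0.0611). The same held for Slc7a1 on leaving out GFP B (0.165), GFP C (0.157), Gas5 C (0.0692) or Gas5 B (0.0663). For Jdp2 it held on leaving out GFP C (0.182), GFP B (0.137), Gas5 C (0.109), Gas5 A (0.0944) or GFP A (0.0827), and also with upper quartile scaling (0.0619), with a filter of 1 CPM (0.0507) and in limma-voom (0.0502).

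Among 29 other ER folding and degradation genes 0 were called by edgeR, DESeq2 or limma-voom, and the median log2 fold change was 0.008. An unadjusted p under 0.05 in edgeR's quasi-likelihood test was reached by 3 of them, compared with 21.4% of all tested genes. Wfs1, an ER membrane protein that tempers the unfolded protein response, had 255.6, 400 and 222.4 CPM against 188.3, 183.3 and 203.1. Every Gas5 library was above every GFP library and Gas5 B stood far above the rest, at a log2 fold change of 0.612 (SE 0.187, adjusted p 0.102). Edem2, which marks misfolded glycoproteins for degradation, stood at 0.167 (adjusted p 0.153).

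**Figure D5:**
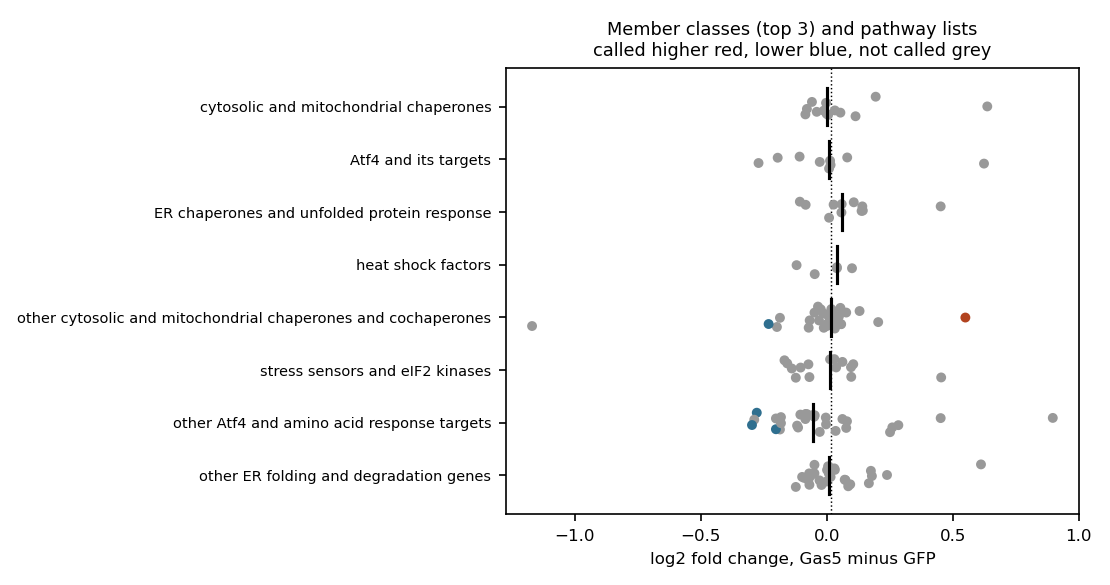
Log2 fold change, Gas5 minus GFP, of every tested gene of the 3 member classes and the 5 pathway lists, with bars at each median and a dotted line at the median of all tested genes, 0.016. The called genes are Hspb8 (red) and Dnajb5, Aars, Slc7a1 and Jdp2 (blue), none of them a member.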

How the data were processed

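RNA-seq of nucleus accumbens tissue was analysed in 6 libraries, 3 Gas5 and 3 GFP. The deposited files hold raw counts of reads per gene, 1 file per library, made by the authors from total RNA depleted of ribosomal RNA with a directional kit, as the labels' protocols state. Alignment and counting tools listed in the submitters' processing notes are STAR 2.7.0 and featureCounts 1.5.0-p3, with the build GRCm38.p6 and, for trimming, Trim Galore 0.4.4. The gene length in the files equals the genomic span for 99.97% of genes, so reads in introns were counted with those in exons. Exons make up 9.27% of the span of Phgdh, 9.97% of Psat1 and 15.1% of Asns, but 100% of Atf4. For members with introns, the values therefore do not separate mRNA from unspliced RNA. Of 1254 protein-coding genes longer than 500 bases that lie wholly within other genes, 0 had a count. Reads in overlaps of genes were thus not counted. Of 11746 genes that share no base, 9550 had counts.

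Counts were filtered by edgeR's default, scaled by TMM and tested with edgeR 4.0.16 (quasi-likelihood F-test, 2-sided, Benjamini-Hochberg adjustment over 17563 genes, threshold 0.05) in R 4.3.3 with limma 3.58.1. CPM use TMM library sizes, and their logarithms use a pseudocount of 0.5. CPM are not divided by length, so levels are compared between libraries, not between genes. Each standard error is |log2 fold change|/√F, and 95% intervals use the fit's degrees of freedom. The common biological coefficient of variation was 8.28%. Library pairs differed by more than sampling noise (chi-square per degree of freedom from 4.82 to 23.3). Alternatives were RLE and upper quartile scaling, no filter, a 1 CPM filter, DESeq2 1.42.0, limma-voom, the replicate letter as a block, and leaving out each library.

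Members and lists were chosen with earlier results of these data known. Values per library are given for Atf4, Xbp1, Ddit3, Hspa5, Hspa1a, Hspa1b, the 3 genes of smallest p and the gene of most CPM in each class, and any called gene. From the pathway lists, the 2 genes of smallest p, called genes, Hsf1 and the main sensors were named. Outside this rule, Hspd1 was given values per library and Hspa8 the range of each group, after their values were seen.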

Additional observations from a re-analysis of the deposited data

How the results depend on the processing

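The number of members called stayed at 0 under RLE and upper quartile scaling, without a filter on low counts, with a filter of 1 CPM, in DESeq2 and limma-voom, and without each library in turn. With the replicate letter as a block, 1 member was called, Atf4 (log2 fold change -0.267, adjusted p 0.0376), which is also the 1 call in the Atf4 class, and 510 genes were called higher. The labels name no pairing by letter. The correlation of the deviations of same-lettered libraries was 0.164 for A, 0.179 for B and -0.094 for C. The A and B libraries correlated best with their own letter, and the C libraries did not. Whether the letters pair the libraries is therefore not settled. Over all genes, 656 were called higher without a filter and 495 in DESeq2, against 260. Without 1 library, between 4 and 251 genes were called higher and between 101 and 611 lower, with 4 and 111 without GFP B and 6 and 101 without GFP C. Other cytosolic and mitochondrial chaperones had 1 call with upper quartile scaling (Hspb8), 1 in limma-voom (Dnajb5) and 3 in DESeq2, against 2, and 0 to 1 without 1 library. Other Atf4 targets had 5 calls with RLE scaling and 5 in DESeq2, 4 without a filter, with 1 CPM and with the block, and 2 with upper quartile scaling and in limma-voom, against 3, and 0 to 3 without 1 library. Other ER genes had 1 call without a filter, and 0 to 1 without 1 library. The cause was not tested.

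The sign of the log2 fold change was the same in every alternative for 16 of the 33 members and turned in at least 1 for 17. It turned for Hsp90ab1 with upper quartile scaling (0.021), without a filter (0.003) and in limma-voom (0.002), for Hspa8 with upper quartile scaling (0.012), for Bag3 with upper quartile scaling (0.022), without a filter (0.004), with 1 CPM (0.002) and with the block (0.008), and for Dnaja1 with RLE scaling (-0.002) and in DESeq2 (-0.001). Without 1 library the values ran from -0.323 to 0.295 for Hspa1b, -0.147 to 0.01 for Dnajb1, -0.034 to 0.051 for Hsp90ab1, -0.061 to 0.067 for Hspa8, -0.13 to 0.123 for Bag3, -0.006 to 0.097 for Hspd1, -0.047 to 0.079 for Dnaja1, -0.114 to 0.028 for Hspa4l and -0.039 to 0.089 for Chordc1. They ran from -0.029 to 0.067 for Ddit3, -0.014 to 0.199 for Sesn2, -0.019 to 0.034 for Psat1, -0.028 to 0.057 for Phgdh and -0.115 to 0.025 for Ddit4. They ran from -0.024 to 0.156 for Xbp1, -0.093 to 0.168 for Manf, -0.054 to 0.062 for Hyou1 and -0.005 to 0.062 for Hsf1. Low counts limit Hspa1a, Hspa1b, Hspb1, Trib3 and Chac1 most, with under 3 CPM in every library. Reads in the 75% of the Hspa1a span that lies in another listed gene were not counted. Of the words of 50 bases, 66.3% in Hspa1a, 62.3% in Hspa1b and 50.1% in Hspb1 occur in other genes, so their levels are uncertain.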

Other observations

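Aars, lower in the Gas5 libraries, belongs to the cytosolic aminoacyl-tRNA synthetases, several of which are targets of Atf4. This family was listed after the Aars values had been seen, so the list is not independent of them. All 20 genes listed were tested, and 1 of them, Aars, was called, lower. The median log2 fold change was -0.05, with 14 genes below 0, and an unadjusted p under 0.05 was reached by 5, all lower. The Gas5 and GFP libraries did not overlap for 7 of the 20 genes. Over all tested genes 5.44% were called, 21.4% reached an unadjusted p under 0.05 and 27.7% did not overlap. Counted in both directions, the family lies near these shares. By direction it leaned lower, since 30% of the family lay above 0, against 54.2% of all tested genes. Of all 17563 tested genes, 1967 were lower at that unadjusted p. Of the 20 genes, 7 were already among the other Atf4 targets described above, Aars and Sars included. Sars, the seryl-tRNA synthetase, stood at 0.8817-fold with an adjusted p of 0.0515 in edgeR's quasi-likelihood test, and Iars, the isoleucyl-tRNA synthetase, at 0.9064-fold with 0.152. Dars, Eprs, Farsb and Kars lay above 1-fold, from 1.023 to 1.062.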
